A study of Mus musculus with 3 samples.

Results

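Hnrnp and Srsf genes encode the heterogeneous nuclear ribonucleoproteins (hnRNPs) and the serine and arginine rich (SR) splicing factors. They were taken from the deposited list of crosslink positions as the protein-coding genes whose symbol starts with Hnrnp or Srsf. The list held 30 of them among 12541 protein-coding genes with a listed position, 20 Hnrnp and 10 Srsf genes. Another annotated gene of these names, Srsf12, had no listed position. The data came from individual-nucleotide resolution crosslinking and immunoprecipitation (iCLIP), which places protein contacts on RNA at single bases, for ZFP36L1 in total naive thymocytes of C57BL/6 mice (strain C57BL/6JBabr in the labels). Cells received 300 mJ/cm2 of ultraviolet light, and complexes were precipitated with the Brf1/2 antibody, Brf1 and Brf2 being older names of ZFP36L1 and ZFP36L2. The labels give 2 WT libraries, from separate experiments, and 1 DCKO library, from the double conditional knockout of Zfp36l1 and Zfp36l2. The sources used here do not state the Cre driver, the age of the mice or any pooling of animals.

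Only 1 list without a library column was used, and the sources do not state whether it pools all 3 libraries or some of them. WT and DCKO could therefore not be compared, no value has a replicate error, and no test was made. A position carries a count, and a site is a position with a false discovery rate (FDR) below 0.05 in the authors' deposited table. The whole list had 462392 positions, 141986 sites and a summed count of 814493, and the depth of each library is unknown. The thymocyte markers Rag1, Cd3e, Cd4, Cd8a, Ptcra and Bcl11b were all listed, with summed counts from 11 for Ptcra to 3281 for Bcl11b. Of 3 markers each for B cells, myeloid cells, erythroid cells and thymic epithelium, 2 were listed, with totals of 3, 18, 7 and 7 counts. Counts were not adjusted for transcript abundance, so more RNA per cell, more cells with the RNA and more crosslinking per RNA cannot be told apart.

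ZFP36L1 belongs to a family of zinc finger proteins that bind AU-rich elements, mostly in 3′ UTRs, and promote mRNA decay. HnRNPs coat nascent transcripts and often repress the use of exons, whereas SR proteins bind exons through RNA recognition motifs and often promote their use. Many genes of both groups are known to control their own output through alternative exons or retained introns that expose the transcript to nonsense-mediated decay (NMD) or keep it in the nucleus.

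All 30 genes had at least 1 site. Together they held 2776 positions and 974 sites, with summed counts of 4888 over positions and 2206 over sites, or 0.711% of the protein-coding positions. Most positions rested on few counts: 46.2% had a count of 1 and 44.6% a count of 2, and 10 positions had 10 or more. Sites within 15 nt of each other in a gene and segment were joined into 207 clusters, 137 labelled intron by the authors, 42 labelled open reading frame (ORF), 26 labelled 3′ UTR and 2 labelled 5′ UTR. The median cluster had 6 counts, and 17 had 20 or more. The 12 clusters with the highest counts held 716 counts, 32.5% of the site counts, in 8 genes.

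Windows of strong clusters, and of some clusters on the AU-rich core, are printed here 5′ to 3′ as 29 bases of the gene's strand on GRCm38 (T stands for U). The strongest position is the middle base. Capitals mark ATTTA and runs of at least 6 T. The first set shows the T-rich windows, chosen because 8 of the 12 strongest clusters had a site within 20 nt of TTTTTT and 1 had a site within 20 nt of TATTTA.
Hnrnpl, ORF label: TTTTTTTTcttgTTTTTTTTTTTcttttt
Hnrnpul1, 3′ UTR label: attatgcTTTTTTTTTTTTTTTTTTaatt
Srsf2, intron label: ctttctttcTTTTTTTTTTTTTTTTTTTT
Srsf5, intron label: ttcctttttgTTTTTTTTTgttgtttgtt
Hnrnpk, ORF label: taaTTTTTTTTcttttgtttttagggtgg
The Hnrnpl cluster lay at chr7:28821977-28822018, that of Hnrnpul1 at chr7:25721716-25721749 and that of Srsf2 at chr11:116851188-116851222. The Srsf5 cluster lay at chr12:80948785-80948832 and the Hnrnpk cluster, the 13th by count, at chr13:58393859-58393892. Their counts were 106 in Hnrnpl, 37 in Hnrnpul1, 33 in Srsf2, 41 in Srsf5 and 28 in Hnrnpk. The strongest position of each is soft-masked in the reference, which marks repeats, as are those of 9 of the 12 strongest clusters. Masking was common in the whole list. Of the members' sites, 66.6% labelled intron, 54.1% labelled ORF and 58.5% labelled 3′ UTR were soft-masked. In other protein-coding genes these shares were 74.7%, 42.3% and 59.5%. All sites of the first 4 clusters (33, 16, 18 and 23 sites) and 6 of 8 in the Hnrnpk cluster had TTTTTT within 20 nt.

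The second set shows windows with the AU-rich core TATTTA, in tandem in the introns of Hnrnpll and Hnrnpr and as a lone copy in the 3′ UTR of Hnrnpab.
Hnrnpll, intron label: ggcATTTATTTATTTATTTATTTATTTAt
Hnrnpr, intron label: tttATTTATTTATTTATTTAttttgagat
Hnrnpab, 3′ UTR label: tgtcccatgtgcatcttATTTAaaatttc
The Hnrnpll cluster at chr17:80036037-80036077 had 21 sites and 96 counts, and 20 of its sites had TATTTA within 20 nt. The Hnrnpr cluster at chr4:136321095-136321114 had 7 sites and 22 counts, and the Hnrnpab cluster at chr11:51601293-51601297 had 3 sites and 10 counts. All sites of both had TATTTA within 20 nt. The Hnrnpr and Hnrnpab clusters ranked 17th and 54th by count. The strongest positions of Hnrnpll and Hnrnpr are soft-masked too, and that of Hnrnpab is not.

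The third set shows strong clusters whose printed window holds neither a run of 6 T nor TATTTA, although that of Hnrnpa2b1 holds the shorter ATTTA.
Hnrnpa2b1, intron label: gttttccaatctgtcATTTActtaaatta
Srsf5, intron label: gtgccacttttccctttctctccttaaca
Hnrnph1, ORF label: ccatctagacctcaattattgtttttcag
The Hnrnpa2b1 cluster at chr6:51462126-51462170 was the strongest of all, with 28 sites and 155 counts, and 15 of its sites had TTTTTT within 20 nt. The Srsf5 cluster at chr12:80949033-80949079 had 60 counts and the Hnrnph1 cluster at chr11:50382934-50382939 had 33, of which 17 stood at 1 base. None of the sites of these Srsf5 and Hnrnph1 clusters had TTTTTT or TATTTA within 20 nt.

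Site counts were uneven over the genes. They ranged from 3 for Hnrnph2 to 381 for Hnrnpa2b1, with a median of 55 in both the Hnrnp genes and all 30. Hnrnpa2b1, which encodes an abundant core hnRNP, held 17.3% of them. Hnrnph1, which binds G runs, had 168 site counts, Hnrnpl, which binds CA repeats, had 146, Hnrnpk, a poly-C binding protein, had 128, and Hnrnpm and Hnrnpll had 123 each. Those 6 genes held 48.5% of the site counts. The 10 Srsf genes ranged from 13 to 119 counts, with Srsf5 the highest and a median of 50.

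**Figure D1:**
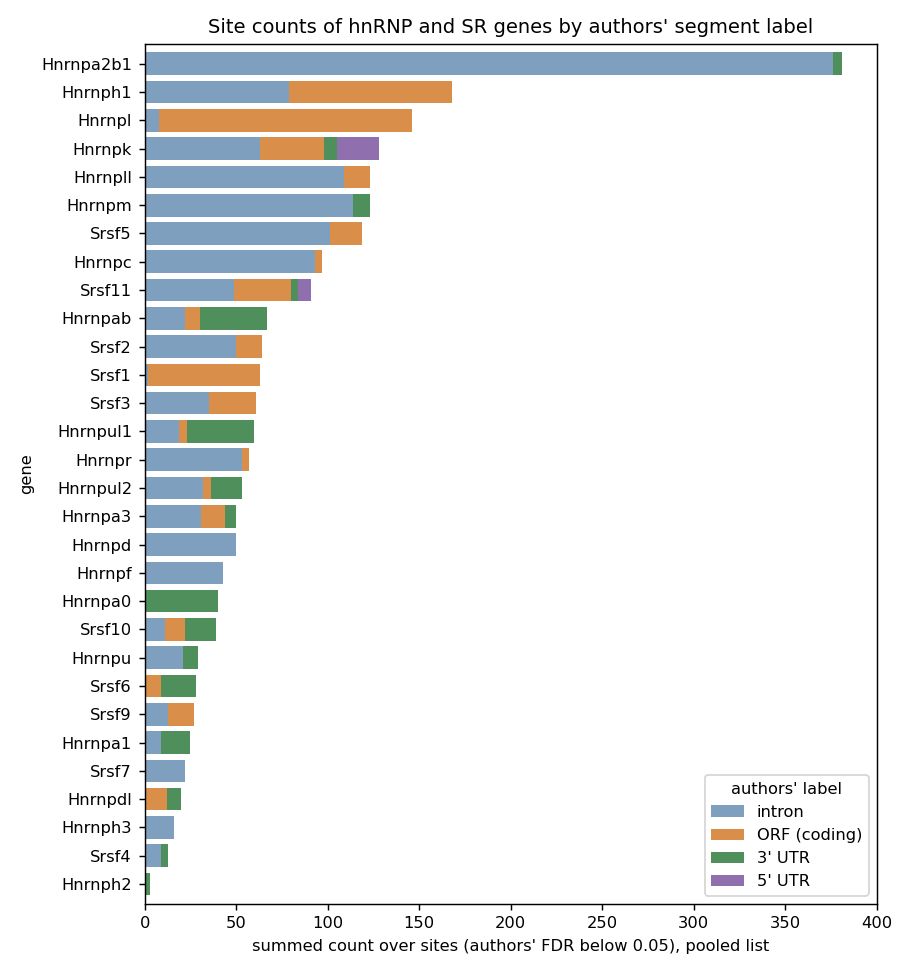
Summed count over sites for each of the 30 genes, as horizontal bars split by the authors' segment label, from the pooled list and without replicates. Hnrnpa2b1 stands apart at 381 counts, almost all labelled intron, whereas Hnrnpl and Srsf1 are mainly labelled ORF and Hnrnpa0 is labelled 3′ UTR alone.

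By the authors' labels, these genes had a larger ORF share and a smaller 3′ UTR share of site counts than other protein-coding genes, but by the GENCODE annotation their 3′ UTR share was the larger. Introns held 64.8% of the members' site counts (95% Wilson interval 62.8 to 66.8), against 75.8% in other protein-coding genes. ORFs held 23.1% (21.4 to 24.9) against 6.02%, and 3′ UTRs held 10.7% (9.52 to 12.1) against 17.5%. With each site placed in its GENCODE segment, 3′ UTRs held 24.03% of the members' site counts (22.3 to 25.9) against 20.1%, and coding exons held 3.90% (3.17 to 4.79) against 1.963%. Over all listed positions, by the authors' labels, 62.1% of the members' counts were in introns, 25.2% in ORFs and 11.1% in 3′ UTRs, against 77.0%, 9.004% and 13.2% in other genes. As a share of positions rather than counts, 3′ UTRs held 11.6% in members and 11.2% in other genes, so the direction for 3′ UTRs depends on the label and the measure. Intervals cover counting error only, and neighbouring sites of a gene are not independent. The Srsf genes had 34.9% of their site counts in ORFs (31.0 to 39.1) and 55.4% in introns, and the Hnrnp genes had 19.4% (17.5 to 21.3) and 67.8%.

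Counted as genes, 16 of 30 had a site labelled 3′ UTR, against 17.7% of all 12541 genes. Sites labelled ORF were found in 19 of 30, against 13.1%, and sites labelled intron in 26 of 30, against 55.6%. Hnrnpk and Srsf11 had sites labelled 5′ UTR, 2 of 30 against 1.13%. Any listed position, site or not, was found in the 3′ UTR of 25 of 30 genes against 45.9%, in the ORF of 28 against 54.2% and in an intron of 29 against 91.8%. The share of genes with a site was thus above the background in each segment. These shares were not adjusted for RNA abundance or gene length, whose part in them was not tested.

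Per length of annotated intron, the site counts labelled intron in these genes were among the densest in the list. The median was 3.20 intron site counts per kb over the 29 members with an annotated intron, against 0.0415 over 12020 genes. Of the 29, 23 lay above the 90th percentile of 0.918 counts per kb. The highest were Hnrnpa2b1 with 57.6, Srsf2 with 42.0 and Srsf5 with 30.2 counts per kb of intron. Counts followed the authors' label and lengths the introns between exons of protein-coding transcripts, which do not always match. Of the intron-labelled counts, 41 of 376 in Hnrnpa2b1 and 15 of 50 in Srsf2 lay in a 3′ UTR, outside that length. All 101 of Srsf5 lay in exons of a retained-intron transcript. For counts labelled 3′ UTR per kb of annotated 3′ UTR, the members' median was 1.53 against 0 over 12126 genes. Of the 30 members, 12 lay above the 90th percentile of 3.28. Member counts labelled ORF or intron inside a 3′ UTR, 233 and 60, were left out of these values.

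Among sites labelled 3′ UTR, Hnrnpa0, an intronless gene, had the highest summed count of 40 over 19 sites. Hnrnpab, also known as CArG-box binding factor A, had 37 over 13 sites, and Hnrnpul1, a relative of the scaffold protein Hnrnpu, had 37 over 16 sites. Srsf6 had 19 over 10 sites, Hnrnpul2 had 17 over 10 sites and Srsf10 had 17 over 11 sites. In the remaining 10 genes with a 3′ UTR site the sum was at most 16, and 14 genes had none. No site labelled 3′ UTR in these genes exceeded a count of 6, found in Hnrnpab at chr11:51601000-51601000. An ORF-labelled position of Hnrnpl that lay in a GENCODE 3′ UTR had a count of 11. Per kb of annotated 3′ UTR, counts labelled 3′ UTR were highest in Hnrnpul1 with 30.01, Hnrnpa0 with 26.4 and Hnrnpab with 22.5. This order holds for that label only. It leaves out counts labelled ORF or intron inside a 3′ UTR, such as 119 in Hnrnpl, whose annotated 3′ UTR has 360 nt. All 16 sites of Hnrnpul1 belonged to the cluster on the T run printed above, 573 nt before the annotated end of the gene, whereas the Hnrnpa0 and Hnrnpab sites were spread over several clusters.

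Among sites labelled intron, Hnrnpa2b1 had 376 counts, Hnrnpm had 114, Hnrnpll had 109, Srsf5 had 101, Hnrnpc had 93 and Hnrnph1 had 79. Hnrnpa2b1 thus held more intron counts than the next 3 genes together. Its highest position, with a count of 24, lay 7725 nt from the annotated 5′ end of the gene, past the last coding base at 6463 nt and 115 nt before the next exon of a protein-coding transcript, in an intron within the 3′ UTR. A retained-intron transcript is annotated over it. The second cluster of the gene, chr6:51463268-51463335 with 48 counts, lay 28 nt before an exon and also within a retained-intron transcript. The third, chr6:51466846-51466874 with 28 counts, lay in an intron of all annotated transcripts.

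Hnrnpll, a regulator of alternative splicing of Ptprc in T cells, drew 96 of its 109 intron counts from the tandem ATTTA cluster. The next exon of a protein-coding transcript began 601 nt downstream of its strongest position, and an exon of another transcript type lay nearer. In Srsf5, the 60-count cluster lay 33 nt before an exon and the 41-count cluster 296 nt before it, both in a retained-intron transcript. The highest position of Srsf5 had a count of 15, that of Hnrnpll 12, that of Hnrnph1 9, and those of Hnrnpm and Hnrnpc 5 each. The counts of Hnrnpm and Hnrnpc were spread over many small clusters, none above 12 and 15 counts.

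**Figure D2:**
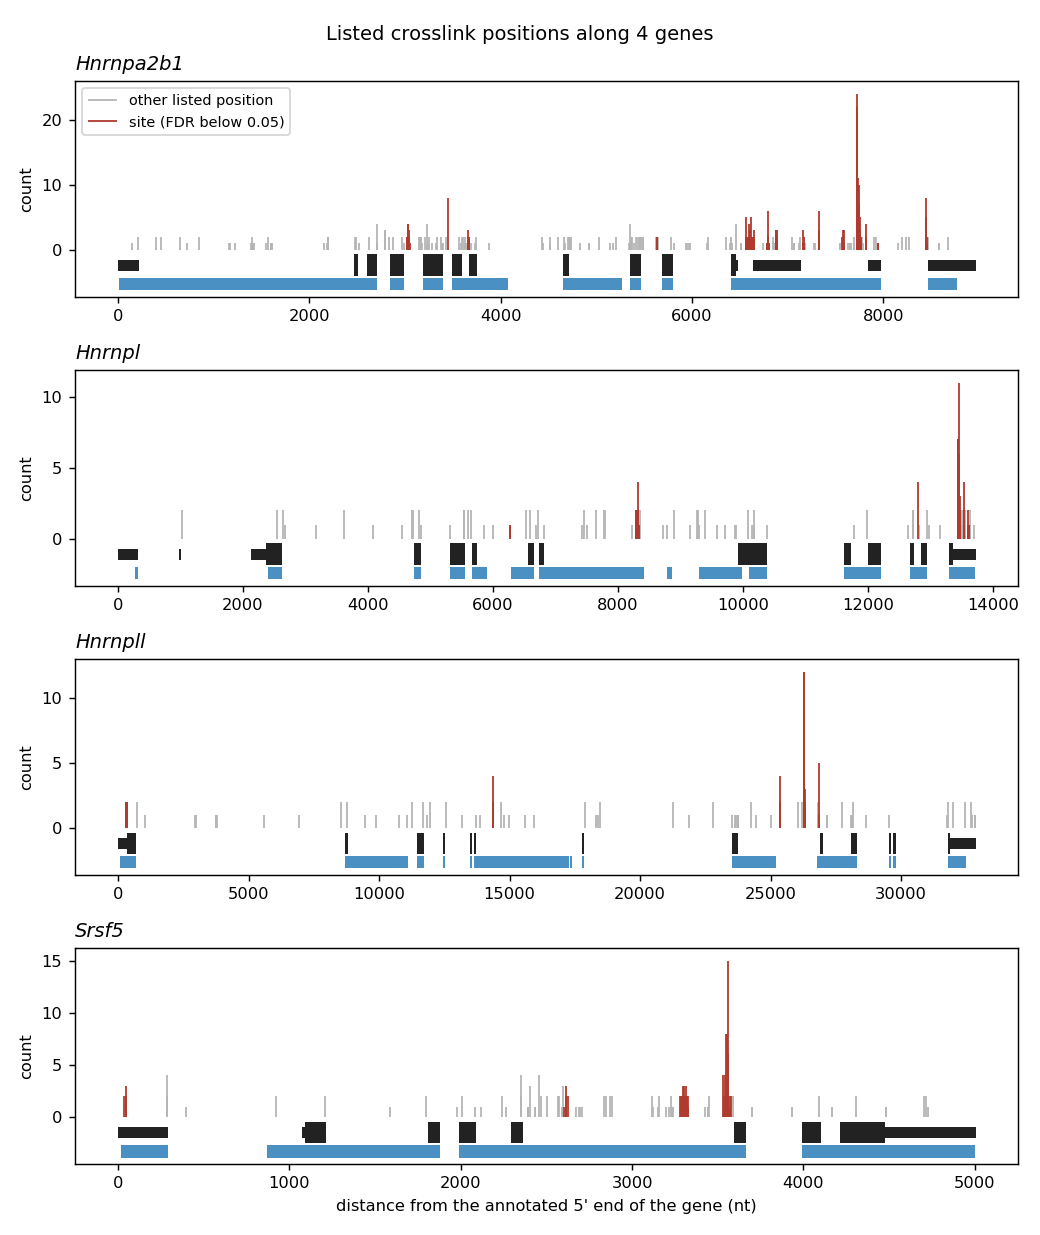
Counts at listed positions along Hnrnpa2b1, Hnrnpl, Hnrnpll and Srsf5, as vertical lines against the distance in nt from the annotated 5′ end, with sites in red and other positions in grey. Black bars are protein-coding transcripts, tall for coding and low for untranslated exons, and blue bars are exons of retained-intron, NMD and other transcripts of the gene; the tallest lines stand at 24, 11, 12 and 15 counts.

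Among sites labelled ORF, Hnrnpl had 138 counts, Hnrnph1 had 89, Srsf1 had 61, Hnrnpk had 35, Srsf11 had 31 and Srsf3 had 26. Few of them lay in annotated coding sequence of GENCODE. Of the 207 ORF-labelled sites of these genes, 45.4% (38.8 to 52.2) lay in a 3′ UTR. Another 34.3% lay only in an exon of a transcript that is not protein-coding. Coding exons held 13.5% (9.53 to 18.9) and 5′ UTRs 6.76%. In other genes these shares were 34.6%, 30.8%, 31.1% and 3.40%, in the same order. Sites placed in a 3′ UTR, coding exon or 5′ UTR could also lie in an exon of another transcript type. All 52 ORF-labelled sites of Hnrnpl and all 24 of Srsf1 lay in retained-intron exons. No member site was coding in one transcript and 3′ UTR in another, so the order in which segments were assigned had no part in the 13.5%. Over all listed ORF positions the coding share was 42.4% in members and 58.9% in other genes. By contrast, all 118 sites labelled 3′ UTR lay in a GENCODE 3′ UTR.

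The largest ORF-labelled clusters show where these counts lay. Of the 52 ORF-labelled sites of Hnrnpl, 41 with 119 of the 138 counts were in the 3′ UTR of the last exon, which is also an exon of an NMD and a retained-intron transcript. Of the 24 of Srsf1, which encodes a founding SR protein, 18 with 42 counts were in a 3′ UTR, at chr11:88049872-88049935, and 6 with 19 counts were in a 5′ UTR. In Hnrnph1, 15 sites with 37 counts were in the 3′ UTR at chr11:50386336-50386360, and 5 sites with 37 counts were coding, 33 of them in the cluster printed above. The 11 sites of Hnrnpk, the 15 of Srsf11 and the 14 of Srsf3 all lay in exons of retained-intron transcripts. Of these, 2 of Hnrnpk and 4 of Srsf3 also lay in a coding exon, and none of Srsf11 did.

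Intron labels also differed from the annotation. Of 637 member sites labelled intron, 60.0% lay outside every annotated exon and 5.02% in a 3′ UTR. Another 33.3% (29.7 to 37.0) lay only in an exon of a non-coding or NMD transcript. In other genes, 95.03% lay outside every exon. All 36 intron-labelled sites of Srsf5, 19 of 27 in Srsf2, 33 of 41 in Hnrnph1 and 82 of 128 in Hnrnpa2b1 lay only in such exons. Counting sites also in a 3′ UTR, 104 of the 128 in Hnrnpa2b1 lay in retained-intron exons. With each gene weighted by its sites, however, exons of this kind covered 30.8% of the intron length. Of the 594 sites between exons of protein-coding transcripts, 35.7% lay in them, a ratio of 1.16. In other genes the ratio, weighted in the same way, was 0.967. Without Hnrnpa2b1 the share of intron-labelled sites in any annotated exon was 29.7%, against 40.03% with it.

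**Figure D3:**
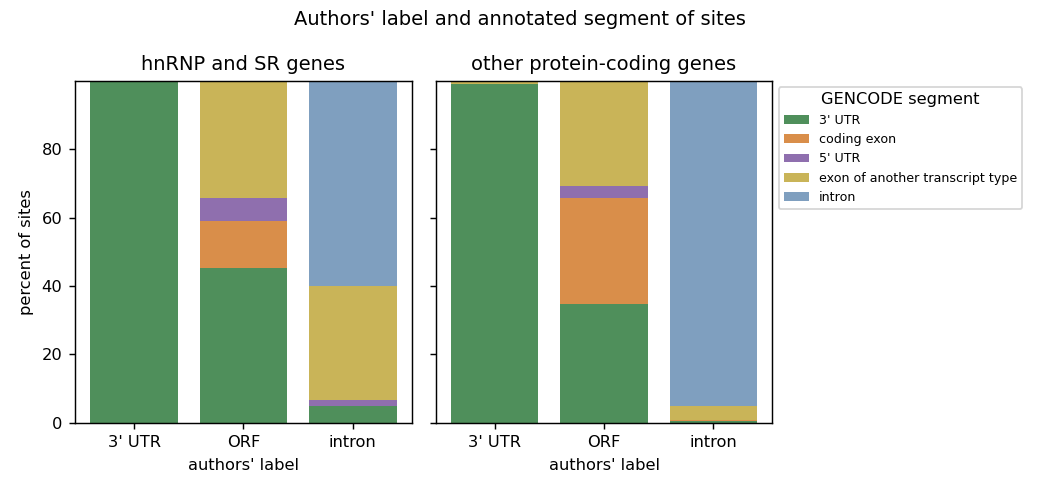
Percent of sites in each GENCODE segment (stacked colours) for each authors' label (horizontal axis), in the 30 genes on the left and in other protein-coding genes on the right. Sites labelled ORF fall in coding exons in 13.5% of cases on the left and 31.1% on the right, and sites labelled intron fall outside all exons in 60.0% and 95.03%.

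The AU-rich core TATTTA was scarce at the 3′ UTR sites of these genes. It was searched on the gene's strand within 20 nt of each site; it contains ATTTA, and no copy of it lies inside TTTTTT, the second motif. TATTTA lay near 3 of 118 member 3′ UTR sites, 2.54% (0.868 to 7.21), against 29.04% (28.4 to 29.7) of 16473 in other genes. All 3 were in Hnrnpab, so 1 of the 16 genes with a 3′ UTR site had a site near TATTTA, against 39.1% of such genes in the whole list. Of the annotated 3′ UTR positions of these genes, weighted by the sites of each gene, 1.997% had it within 20 nt. The longer TATTTAT was near 0 of 118 sites, which allows a share of up to 2.54% (3 counts of the total, the limit used for every share of 0 here; the Wilson upper bound is 3.15%), against 21.5% in other genes. Over all listed 3′ UTR positions TATTTA was near 1.55% in members (0.663 to 3.57) and 15.5% in other genes.

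Runs of T were common there. TTTTTT lay near 63 of 118 member 3′ UTR sites, 53.4% (44.4 to 62.1), against 31.9% (31.2 to 32.6) in other genes and 7.63% of the members' annotated 3′ UTR positions. It was near a site in 11 of 16 genes, against 34.7%. Over all listed positions the shares were 31.0% (26.2 to 36.2) in members and 19.8% in other genes. The base at the site was T in 67.8% of member 3′ UTR sites and 65.7% of others. Without Hnrnpul1, whose 16 sites share a run, the share near TTTTTT was 46.1%.

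Copies of the motifs were counted next. A TATTTA copy counted if it lay wholly within 20 nt of a site, and a T run if any of its bases did. Shares are therefore comparable between gene sets but not between the motifs. The annotated 3′ UTRs of the 30 genes hold 37 copies of TATTTA in 14 genes, 0.498 per kb against 0.703 in other genes. Of the 37 copies, 2 had a site (in Hnrnpab and Hnrnpa2b1), 5.41% (1.495 to 17.7) against 8.93% in other genes. Srsf10, which encodes an SR protein that can repress splicing, holds 13 of them and Hnrnpr holds 8, all without a site. Runs of at least 8 T numbered 41 in 20 genes, 0.552 per kb against 0.328 in other genes, and 15 had a site, 36.6% (23.6 to 51.9) against 9.34% in other genes. Restricted to genes with a site in the annotated 3′ UTR, the shares were 8% of 25 copies of TATTTA against 25.5%, and 48.4% of 31 T runs against 24.1%.

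In introns TATTTA was near 63 of 637 member sites, 9.89% (7.81 to 12.5), against 22.2% in other genes and 3.03% of the members' intron positions. As genes, 10 of the 26 with an intron site (38.5%) had one near TATTTA, against 41.0% of other genes. Hnrnpll had 23 of the 63 and 101 counts, Hnrnpr had 8, Hnrnpa2b1 had 7 and Hnrnpa3 had 6, so that 4 genes held most of them. Of the 145 intron sites of Srsf genes, 1 was near TATTTA, in Srsf11. The tandem form, TATTTA followed by another TTTA, was near 20 of the Hnrnpll and 7 of the Hnrnpr sites and near none in the other genes. The shorter ATTTA was near 14.3% of member intron sites against 25.8% in other genes. Weighted by count, ATTTA stood at 23.5% against 29.8%, and TATTTA at 13.4% against 26.5%. Outside soft-masked sequence the members' share near TATTTA was 5.16% (2.91 to 9.01), and that of other genes is not given here.

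TTTTTT lay near 48.4% of member intron sites (44.5 to 52.2), against 34.5% in other genes and 7.73% of the members' intron positions. In Srsf genes it was 68.3% (60.3 to 75.3), including all 27 sites of Srsf2 and 23 of 36 in Srsf5. In Hnrnp genes it was 42.5% (38.2 to 46.9). Among ORF-labelled sites, TATTTA was near 0.966% of member sites against 16.5% in other genes, and TTTTTT near 44.9% (38.3 to 51.7) against 21.5%. Hnrnpl supplied many of the latter, with 46 of its 52 sites near TTTTTT, 33 of them in the cluster printed above. None of the 89 ORF-labelled sites of Srsf genes was near TATTTA, which allows a share of up to 3.37% by the limit of 3 counts.

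**Figure D4:**
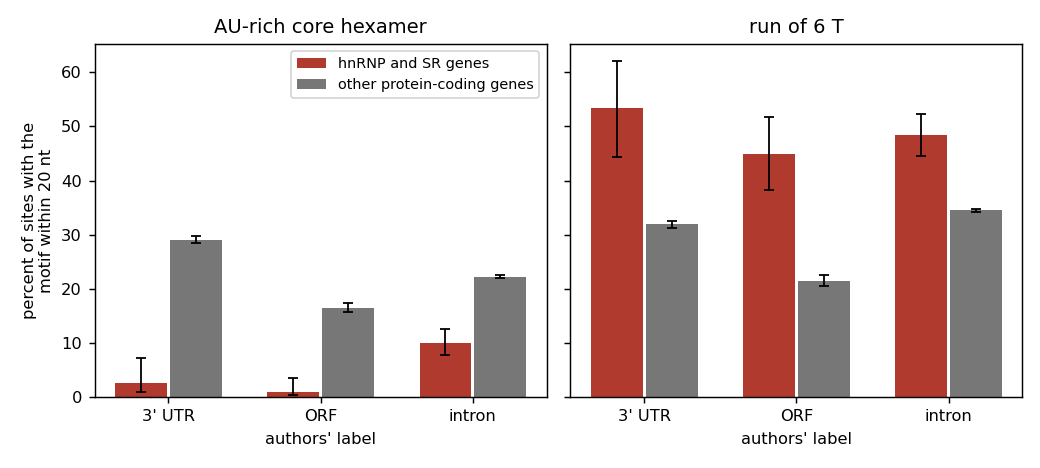
Percent of sites with the AU-rich core hexamer (left) or a run of 6 T (right) within 20 nt, by authors' label, for the 30 genes in red and other protein-coding genes in grey, with 95% Wilson intervals for counting error. The red bars are below the grey ones on the left, at 2.54% against 29.04% in 3′ UTRs, and above them on the right, at 53.4% against 31.9%.

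Many intron sites lay just before an exon, where the polypyrimidine tract of the 3′ splice site is found. Of 594 member sites in introns of protein-coding transcripts, 191 in 19 genes lay within 50 nt before the next exon of such a transcript. This was 32.2% (28.5 to 36.02), against 6.60% of the intron length with each gene weighted by its sites, a ratio of 4.88. In other genes 10.4% lay there against 1.53% of the length, weighted in the same way, a ratio of 6.78. The members' share was thus the larger and their ratio to this weighted length the smaller. A ratio to the unweighted intron length is not given here. The distance of 11 to 20 nt held most, 14.3% of member sites and 4.85% of others. Within 50 nt after the preceding exon lay 6.40% of member sites, a ratio to the weighted length of 0.970. In other genes these values were 2.18% and 1.43.

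The genes differed in this respect. All 16 intron sites of Hnrnpa3, 23 of 32 in Hnrnpk and 9 of 13 in Srsf7 lay within 50 nt before an exon. Hnrnpa2b1 had 38 of 106 there and Hnrnpm 21 of 58. In Hnrnpc it was 0 of 41, which allows a share of up to 7.32%, and in Srsf2 0 of 19, which allows up to 15.8%. These limits treat sites as independent, but 18 of the 19 Srsf2 sites belonged to a single cluster, so they are too narrow. The Hnrnpa3 sites near TATTTA formed a cluster at chr2:75661655-75661664, 11 nt before an exon, with 11 counts. In that gene none of the 16 sites was near TTTTTT, whereas in Hnrnpa2b1 31 of the 38 sites before exons were. Over all listed positions, 21.1% of the members' intron positions lay within 50 nt before an exon and 7.88% of others'.

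**Figure D5:**
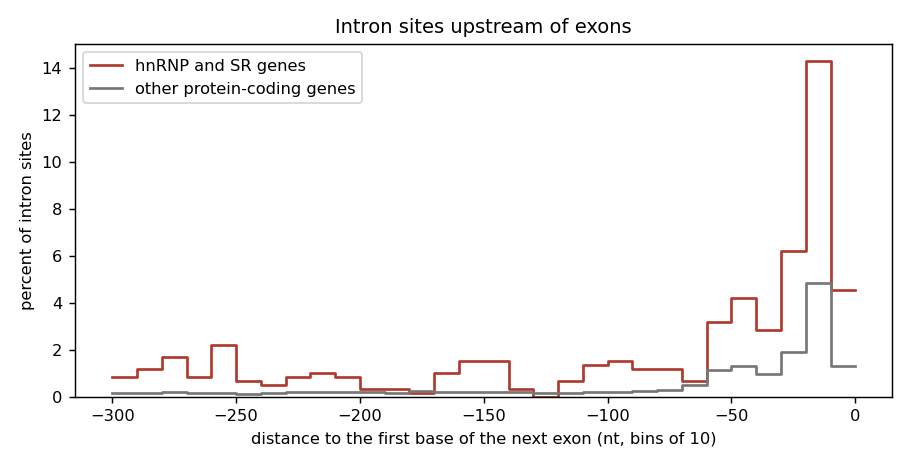
Percent of intron sites in bins of 10 nt against the distance in nt to the first base of the next exon, for the 30 genes in red and other protein-coding genes in grey. Both lines peak at 11 to 20 nt before the exon, at 14.3% and 4.85% of sites, and the denominators are 594 and 84480 sites.

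Other genes of splicing were looked at through a list of 41 genes, which holds branch point and polypyrimidine tract factors, SR protein kinases and further RNA-binding proteins. Of these, 40 had a listed position. A 3′ UTR site was found in 24 (60%), an ORF site in 20 (50%) and an intron site in 38 (95%). The highest 3′ UTR site counts were those of Celf1 with 99, Celf2 with 69, Srrm2 with 60, Son with 45 and Mbnl1 with 38. TATTTA lay near 10.1% of their 3′ UTR sites (7.13 to 14.1) and TTTTTT near 47.7% (42.0 to 53.5). For the Hnrnp and Srsf genes these shares were 2.54% (0.868 to 7.21) and 53.4% (44.4 to 62.1). The intervals for TATTTA met only between 7.13 and 7.21, whereas those for TTTTTT overlapped widely. Near intron sites TATTTA stood at 11.6% (10.2 to 13.3) in the 41 genes and 9.89% (7.81 to 12.5) in the Hnrnp and Srsf genes, with widely overlapping intervals. Overlap of intervals does not show that shares are alike. None of these differences was tested.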

How the data were processed

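The authors deposited 1 list of positions in which a signed whole-number score, called counts in the file header, was taken as its absolute value. Per the file headers, a second score sums the counts within 15 nt, the p-value was not used, and the FDR is treated as a score because it exceeds 1. The submitters' processing notes name Bowtie and GRCm38, without a version. The sources do not state how multiply mapping reads were handled, so positions in genes with pseudogenes or close copies are uncertain. Listed positions count from 0; coordinates here count from 1.

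Genes were matched to GENCODE vM21 on GRCm38 (30 of 30 members, 12245 of 12541 names), with 3′ UTR taking precedence over coding, 5′ UTR and other exons. No member site lay in an exon of another protein-coding gene on its strand. Motif windows took 20 nt on either side. Shares of intron length and of annotated positions weighted each gene by its sites. Python 3.11.15, pandas 2.3.3 and numpy 2.4.6 were used, and the functions were tested on simulated data. Shares carry 95% Wilson intervals, and a share of 0 the limit of 3 counts of its total. Both treat sites as independent, which neighbouring sites are not.

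The members and lists were chosen with earlier results of these data known. Full values are given for up to 6 members with the highest site count in 3′ UTR, intron and ORF, and for the 12 clusters with the highest count. Other members named singly were chosen after their values were seen, as were the analysis of distances to exons and that of TTTTTT in 3′ UTRs.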

Additional observations from a re-analysis of the deposited data

How the results depend on the processing

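Of 54 alternatives to 15 values, 28 left the value within 1.5 times of a count or within the interval of a share, and 26 moved it. With all listed positions, genes with a 3′ UTR position rose to 25, counts to 542 in 3′ UTRs and 3037 in introns, and shares became 6.27% for TATTTA in introns, 32.4% for intron labels in exons, 21.1% before exons, 31.0% for TTTTTT in 3′ UTRs and 42.4% for ORF labels in coding exons. With the GENCODE segment, 10 genes had an ORF site, and counts were 530 in 3′ UTRs and 809 in introns. With counts of at least 3 they were 102 and 610. TATTTA in introns was 14.9% within 50 nt, 5.16% outside soft-masked sequence and 13.4% weighted by count. Within 100 nt before an exon lay 39.9%. Segment shares of all listed counts (intron 62.1%, ORF 25.2%, 3′ UTR 11.1%) became 64.8% and 23.1% for intron and ORF over sites, 40.4%, 10.7% and 20.8% by GENCODE segment, and 58.9%, 27.1% and 12.3% without Hnrnpa2b1, and without it 29.7% of intron-labelled sites lay in exons. No paired analysis was possible because the list has no library column, and for the same reason no library could be left out. Low counts per position limit what a lone site shows.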

Other observations

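The rule by symbol leaves out genes of related proteins. Tra2a and Tra2b, which encode SR-like activators of exons, had site counts of 36 and 65 in introns, and Tra2a had 15 in its 3′ UTR. Sfrs18, listed under an older SR symbol, had 91 site counts labelled 3′ UTR, 27 labelled ORF and 12 labelled intron. By the authors' 3′ UTR label this was more than in any of the 30 genes, whose highest was 40. By the GENCODE annotation, however, 119 ORF-labelled site counts of Hnrnpl also lay in a 3′ UTR.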
